A study of Arabidopsis thaliana with 18 samples.

Results

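The genes described here are 10 MADS-box genes of *A. thaliana*, most of them known as repressors of flowering: *SVP* and its close relative *AGL24*, *FLC* and its relatives *FLM* and *MAF2* to *MAF5*, and *AGL15* and *AGL16*. They were chosen by name, out of 27444 annotated protein-coding genes, and a gene was counted as bound when the authors had assigned a ChIP-seq peak to it. Of the 1503 peaks in the 4 deposited lists, 10 were assigned to a gene of this group, and these peaks fell on 4 genes, *SVP*, *AGL16*, *FLC* and *AGL15*. *AGL24*, *FLM*, *MAF2*, *MAF3*, *MAF4* and *MAF5* had no assigned peak in any list. The share of all protein-coding genes with a peak in any list was not computed, and shares are given for each list below.

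MADS-domain proteins bind DNA as dimers, and their usual target is the CArG-box, a short element with an A/T-rich core. SVP and FLC form a protein complex, and each of them delays flowering in part by repressing genes such as *FT* and *SOC1*. FLM and other FLC relatives also pair with SVP. Many genes of the family are bound by other members of the family, so that the lists also show where the 2 repressors bind at their own genes and at each other's.

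The series holds 18 ChIP-seq samples of 2-week-old Columbia-0 seedlings, in 6 groups of 3. The sample titles of all groups but the *35S:GFP* control name *FRI*. An active *FRI* allele keeps *FLC* expressed. SVP:GFP, a fusion of SVP to green fluorescent protein made from the *SVP* promoter, was precipitated with an antibody against GFP from plants with the transgene *pSVP:SVP:GFP* in *svp-41*. These plants had either functional *FLC* (called SVP:GFP in WT) or the *flc-3* allele (called SVP:GFP in *flc-3*), both with *FRI*, with *35S:GFP* plants as the negative control of both. FLC was precipitated with an FLC antiserum from plants with *FLC* and *FRI* and either functional *SVP* (called FLC in WT) or the *svp-41* allele (called FLC in *svp-41*), with the double mutant *svp-41 flc-3*, also with *FRI*, as the negative control of both. The day length is long in the sample labels and short in the study's methods. The 2 lists of a protein therefore share their control samples. The supplementary methods add that negative control samples were pooled for peak calling, without saying whether the pool joined both kinds of control, in which case all 4 lists share it. The SVP:GFP plants carry *SVP* sequence in a transgene besides the *svp-41* allele of the gene itself, and both kinds of sequence align to the same place. In *flc-3*, which is known to carry a small deletion around the start codon of *FLC*, some of the sequence of *FLC* is missing.

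The lists held 523 peaks for SVP:GFP in WT, 246 for SVP:GFP in *flc-3*, 315 for FLC in WT and 419 for FLC in *svp-41*. Each peak has a start, an end, a summit, a fold enrichment over the control and a −log10 P, all from the authors' peak calling. Peaks were called in each replicate and kept where reproducible, but the lists give 1 value for a peak, and the replicate or call it came from is not given in the sources used here. The values therefore carry no SD and no n, no test between lists could be made, and the depth of the samples is unknown. Median fold enrichment was 3.70, 3.50, 3.28 and 3.65 in the order of the lists above, median −log10 P was 31.4, 19.1, 10.4 and 15.6, and median width was 610, 429, 233 and 300 bp. Because these medians differ, the rank of a peak in its own list is given beside its values.

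SVP:GFP in WT had peaks at 3 of the 10 genes (*SVP*, *FLC* and *AGL16*), in a list that reached 2.64% of all protein-coding genes. SVP:GFP in *flc-3* had peaks at 1 of the 10 (*SVP*), where 1.02% of all protein-coding genes had a peak. FLC in WT had peaks at 2 of the 10 (*SVP* and *AGL16*), beside 1.15% of all protein-coding genes, and FLC in *svp-41* at 3 of the 10 (*SVP*, *AGL15* and *AGL16*), beside 1.32%. *SVP* was thus the only gene of the group with a peak in all 4 lists, and the only one in the list for SVP:GFP in *flc-3*. *FLC* had a peak in no FLC list. Of the 10 peaks, 7 ranked above the median of their list by −log10 P. The summit lay within 1 kb of the start of the gene of the group for 9 of the 10. Over all 1906 pairs of a peak and any gene assigned to it, neighbours included, the share was 41.6%. This is not a like measure, since neighbouring genes assigned to the 10 peaks are left out of the 9. Their starts all lay more than 1 kb from the summit. The 10 peaks fell on 4 genes and 5 of them on *SVP*, so they are not independent.

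**Figure D1:**
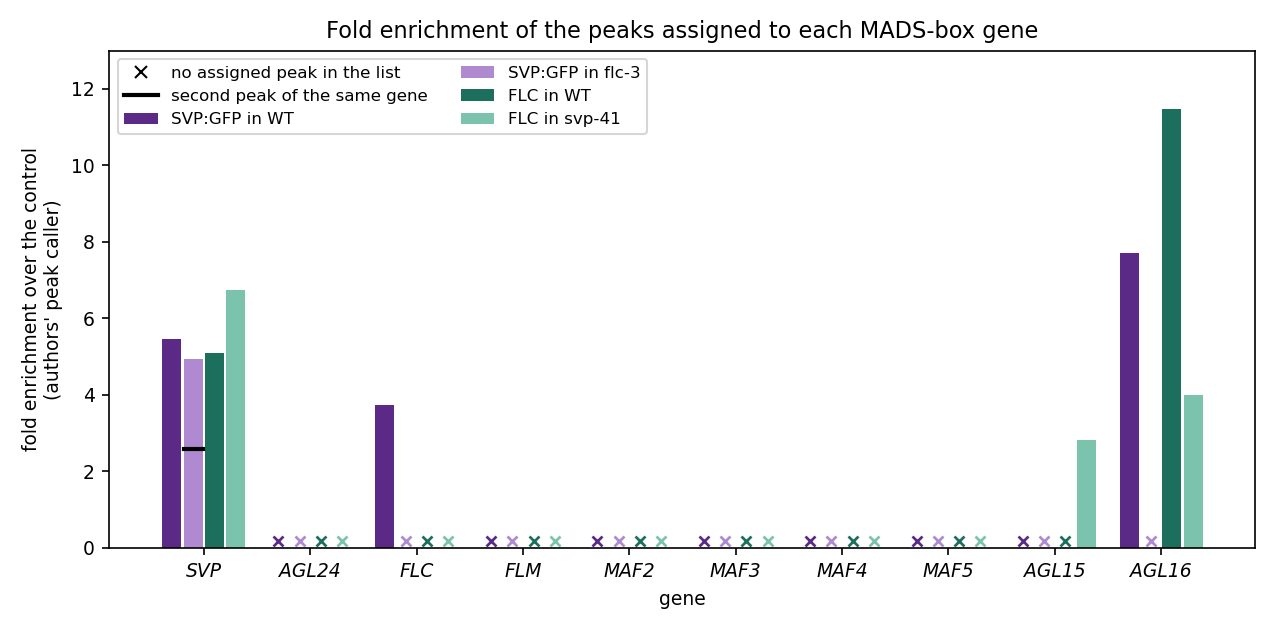
Fold enrichment over the control (y axis, linear, from 0) of the peaks assigned to each of the 10 genes (x axis), with a bar for each of the 4 lists, a cross where a list has no peak assigned to the gene, and a black line for the second peak of *SVP* in SVP:GFP in *flc-3*. Bars stand only at *SVP*, *FLC*, *AGL15* and *AGL16*, and the highest is that of *AGL16* in FLC in WT, at 11.5.

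*SVP* (AT2G22540, chr2:9579647-9583901, plus strand, TAIR10.1) encodes the SVP repressor itself. In SVP:GFP in WT its peak ran from chr2:9578798-9583624, with its summit at position 9580151, a fold enrichment of 5.47 and a −log10 P of 68.1. It ranked 115th of 523 by −log10 P and 109th by fold enrichment, but it was the widest peak of the list, at 4826 bp. The next widest measured 4347 bp, and 20 of the 523 peaks were wider than 2000 bp. The peak reached from 849 bp before the start of *SVP* to 3977 bp past it and covered 93.5% of the gene.

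In SVP:GFP in *flc-3* the same gene had 2 peaks. The larger, chr2:9579867-9582267, was 2400 bp wide (4th widest of 246) and had a fold enrichment of 4.94 and a −log10 P of 35.0, which ranked 36th. It covered 56.4% of the gene. The smaller, chr2:9583081-9583586, was 505 bp wide and lay near the end of the gene, with a fold enrichment of 2.57 and a −log10 P of 12.4, which ranked 228th and was lost at a minimum −log10 P of 20. Both lay wholly inside the extent of the WT peak. The widest peak of the *flc-3* list, at a place on chromosome 1 with no assigned gene, also measured 4826 bp.

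FLC also had a peak at *SVP* in both genotypes, and these peaks were short. In FLC in WT the peak was chr2:9579920-9580404, 484 bp wide, with a fold enrichment of 5.11 and a −log10 P of 22.9 (63rd of 315). In FLC in *svp-41* it was chr2:9579949-9580393, 444 bp wide, with a fold enrichment of 6.73 and a −log10 P of 42.4 (61st of 419). The FLC peak at *SVP* was thus called with and without functional SVP. Its ratio of fold enrichment, WT over *svp-41*, was 0.758, and this was also the median ratio over the 183 overlapping pairs of FLC peaks.

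Of the 5 peaks at *SVP*, 3 had their summits within 18 bp of each other, in the 5′ UTR. The summit lay 504 bp past the start of the gene in SVP:GFP in WT, 509 bp in FLC in WT and 491 bp in FLC in *svp-41*. SVP:GFP in WT and FLC in WT, where both proteins are present, differed by 5 bp. The summit of the larger peak of SVP:GFP in *flc-3* lay elsewhere, 866 bp past the start of the gene and 96 bp past the start codon, in the first coding exon. It was 362 bp from the summit of SVP:GFP in WT, where the median distance over the 148 overlapping pairs of these lists was 30 bp, and this pair ranked 7th by distance. The smaller peak had its summit 3471 bp past the start of the gene, also in a coding exon. It was 2967 bp from the summit of SVP:GFP in WT, the longest distance of the 148 pairs. The widths of overlapping peaks limit how far apart their summits can lie, and the SVP:GFP in WT peak at *SVP* was the widest of its list. These ranks therefore depend on width as well as on position.

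The width of the SVP:GFP peaks at *SVP* stood apart from that of the FLC peaks. The peak of SVP:GFP in WT was 9.97 times as wide as that of FLC in WT, the highest ratio of 146 overlapping pairs, with a median of 1.57 and a next highest of 8.41. Against FLC in *svp-41* the ratio was 10.9, the highest of 114 pairs, with a median of 1.24. The larger peak of SVP:GFP in *flc-3* was 4.96 times as wide as that of FLC in WT (highest of 68 pairs) and 5.41 times as wide as that of FLC in *svp-41* (highest of 86 pairs). By their labels the SVP:GFP plants carry the transgene, while neither kind of control plant nor the FLC samples do. At *SVP*, binding of SVP:GFP to the gene and extra copies of its sequence therefore cannot be told apart from these lists. The FLC peaks at *SVP* were called in plants without this transgene.

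**Figure D2:**
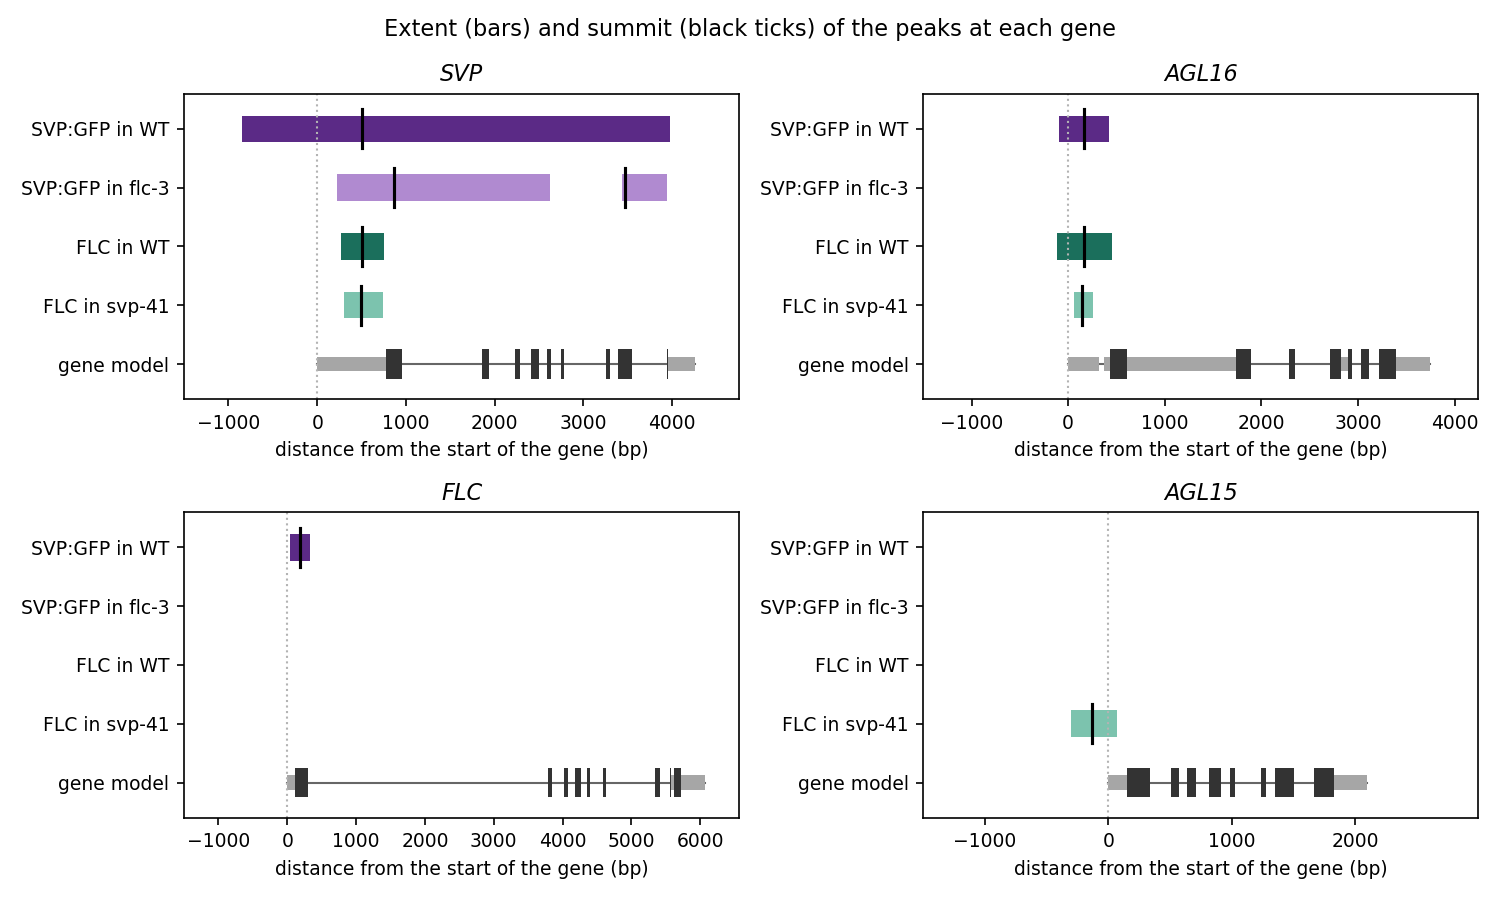
Extent (bars) and summit (black ticks) of the peaks of the 4 lists at *SVP*, *AGL16*, *FLC* and *AGL15*, by distance from the start of the gene in bp (x axis), above the gene model (coding exons dark, other exon sequence of any transcript grey, introns as a line). At *SVP* the SVP:GFP peaks extend over most of the gene while both FLC peaks stay in the 5′ UTR, and at *AGL16* the 3 summits lie 140, 162 and 164 bp past the start of the gene.

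The shared summit at *SVP* had no exact CArG-box, which was searched on both strands as CC, 6 letters that are each A or T, and GG. The nearest likeness within 100 bp was a box with 1 mismatch at chr2:9580211-9580220, 564 bp past the start of the gene in the 5′ UTR. Its centre lay 59.5, 64.5 and 77.5 bp from the summits of FLC in WT, SVP:GFP in WT and FLC in *svp-41*. Neither summit of SVP:GFP in *flc-3* had such a box within 100 bp, although the larger peak held 4 farther away and the smaller peak 0. The only exact box of *SVP*, from 3 kb upstream to 1 kb downstream, lay 2016 bp before the start of the gene and outside all 5 peaks. Both are shown with 10 bases on each side, on the plus strand of TAIR10.1 (RefSeq), with the box in capitals. They set the box near the shared summit beside the exact box that has no peak.
SVP box with 1 mismatch near the summits, chr2:9580201-9580230: ttaaagtctcCCTTTTTAGCaaaaattctc
SVP exact box outside the peaks, chr2:9577621-9577650: aagaaagaagCCTAAAATGGctaaaaggtt

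The peaks of *SVP* were shared with neighbouring genes in the authors' assignment. In SVP:GFP in WT and both FLC lists the peak was also assigned to AT2G22530, whose start lay 2535, 2540 and 2522 bp from the summits of SVP:GFP in WT, FLC in WT and FLC in *svp-41*. The smaller peak of SVP:GFP in *flc-3* was also assigned to *NET2D* (AT2G22560), a gene of the actin-binding NET family, whose start lay 2431 bp away. All 5 summits lay inside *SVP*.

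*AGL16* (AT3G57230, chr3:21177282-21181026, plus strand), which encodes a MADS-domain protein known to delay flowering together with SVP and FLC, had a peak in 3 lists and none in SVP:GFP in *flc-3*. In SVP:GFP in WT the peak was chr3:21177187-21177703, with a fold enrichment of 7.71 and a −log10 P of 126 (31st of 523). In FLC in WT it was chr3:21177167-21177732, with a fold enrichment of 11.5 and a −log10 P of 85.6 (7th of 315). In FLC in *svp-41* it was chr3:21177345-21177539, with a fold enrichment of 3.99 and a −log10 P of 15.0 (223rd of 419). *AGL16* was thus among the highest peaks of both lists in which both proteins were present, near the median rank of FLC in *svp-41*, and without a peak in SVP:GFP in *flc-3*, in which the nearest summit lay 189 kb from the gene.

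The difference between the FLC lists was large for an overlapping pair. The fold enrichment in FLC in WT was 2.87 times that in FLC in *svp-41*, the 3rd highest of 183 pairs, whose median ratio was 0.758 and whose range was 0.251 to 4.22. The FLC in WT peak was 565 bp wide and the FLC in *svp-41* peak 194 bp, a ratio of 2.91 that was the highest of the 183 pairs (median 0.743, next highest 2.55). At *SVP* the same FLC lists gave a width ratio of 1.09. These lists share their controls, and the ratios have no replicate error. The *AGL16* peak of FLC in *svp-41* was lost at a minimum −log10 P of 20.

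The 3 summits at *AGL16* lay within 24 bp of each other, 140 to 164 bp past the start of the gene, in the 5′ UTR. SVP:GFP in WT and FLC in WT differed by 2 bp. A box with 1 mismatch lay at chr3:21177447-21177456, with its centre 5.5, 7.5 and 29.5 bp from the summits of SVP:GFP in WT, FLC in WT and FLC in *svp-41*, and no exact CArG-box was found from 3 kb upstream to 1 kb downstream of the gene. This box is shown with 10 bases on each side on the plus strand, in capitals. All 3 summits of the gene lay within 29.5 bp of its centre.
AGL16 box with 1 mismatch, chr3:21177437-21177466: tatgttctttCCTTATGTGGctctctcttc

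All 3 peaks were also assigned to AT3G57220, which ends just before *AGL16*, and their summits lay 228 to 252 bp beyond its end and inside *AGL16*.

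*FLC* (AT5G10140, chr5:3173382-3179448, minus strand), the repressor that winter cold silences, had 1 peak, in SVP:GFP in WT. It was chr5:3179121-3179411, with its summit at position 3179258, a fold enrichment of 3.75 and a −log10 P of 61.8. It was 290 bp wide, the 6th narrowest of 523. The summit lay 190 bp past the start of the gene and 81 bp past the start codon. Of the 291 bases of the peak, 257 (88.3%) lay in exon 1, which is 294 bp long, and the other 34 in the first intron. The peak held all 185 coding bases of exon 1, so that it covered little besides this exon.

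The 2 values of the *FLC* peak ranked differently, 130th by −log10 P and 247th by fold enrichment. In this list the values mostly rise together, as the plot of all peaks shows. Among the 84 other peaks with a fold enrichment within 0.25 of that of *FLC*, the median −log10 P was 31.0 and the highest was 41.8, so none reached the 61.8 at *FLC*. The −log10 P of MACS depends on the number of reads as well as on the fold. Reads were not used here.

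**Figure D3:**
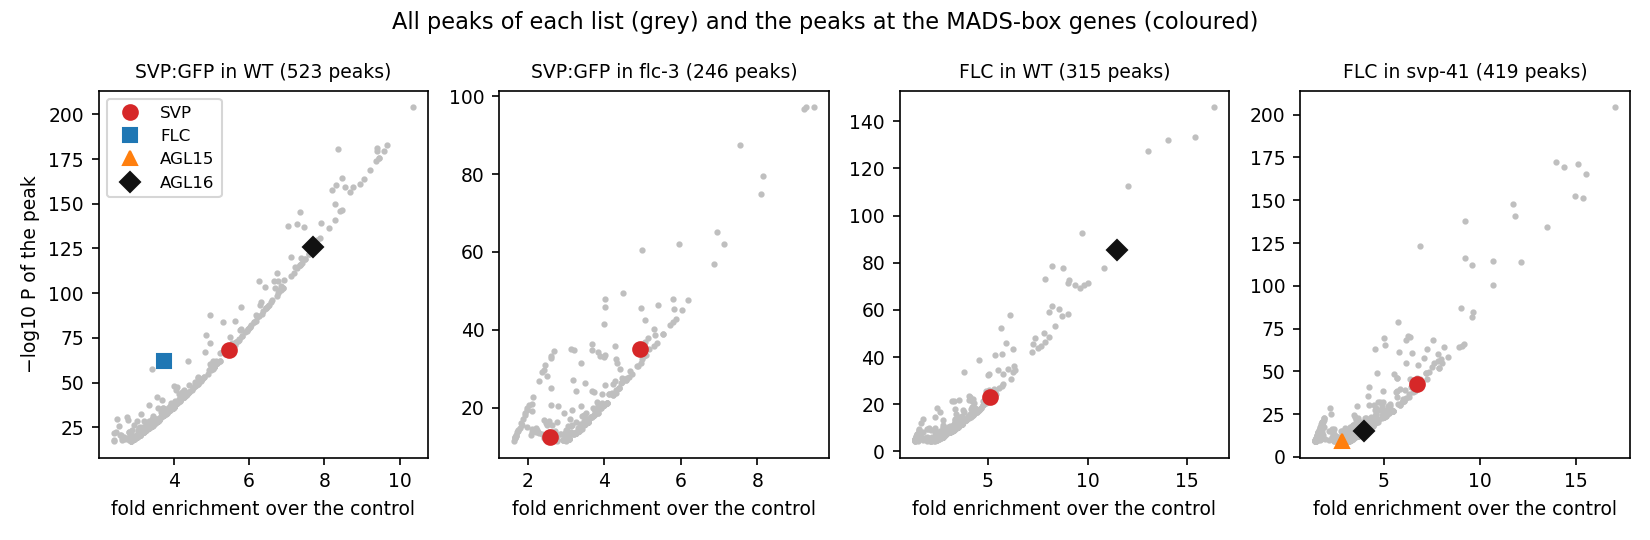
Fold enrichment over the control (x axis) against −log10 P (y axis) for every peak of the 4 lists, 1 list in each panel with its own axes, with all peaks in grey and those at *SVP*, *FLC*, *AGL15* and *AGL16* coloured. The peak at *FLC* lies above the band of the other SVP:GFP in WT peaks of like fold enrichment, as do some grey peaks at other fold enrichments. The peak at *AGL16* is near the upper end in FLC in WT and in the lower cloud in FLC in *svp-41*.

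The coding part of exon 1 holds the summit of the *FLC* peak and 185 of the 291 bases of the peak. In MIKC-type MADS-box genes this exon encodes the MADS domain, which binds DNA. It is shown 5′ to 3′ on the minus strand of TAIR10.1 (RefSeq), with the start codon in capitals.
FLC coding part of exon 1, chr5:3179155-3179339: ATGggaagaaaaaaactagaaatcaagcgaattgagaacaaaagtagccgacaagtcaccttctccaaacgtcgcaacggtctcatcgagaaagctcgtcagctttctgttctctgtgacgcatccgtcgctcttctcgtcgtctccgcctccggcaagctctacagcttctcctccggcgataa

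No CArG-box, exact or with 1 mismatch, lay within 100 bp of the *FLC* summit, and no exact box lay from 3 kb upstream to 1 kb downstream of the gene. The peak held 1 box with 1 mismatch, farther from the summit. The *FLC* peak had no counterpart in the other lists. The nearest summit was 73.8 kb from the gene in SVP:GFP in *flc-3*, 217 kb in FLC in WT and 73.8 kb in FLC in *svp-41*. In SVP:GFP in *flc-3*, loss of FLC protein and loss of sequence at this site cannot be told apart. The allele is known to carry a small deletion around the start codon, whose extent is not given in the sources used here. The *svp-41 flc-3* control plants carry the same allele, and whether they were part of the control of SVP:GFP in WT is not given in the sources used here. No other stretch of the genome matched the 200 bp around the summit at 95% identity or more over 150 bp or more, and the best match had 85.3% over 197 bp.

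*AGL15* (AT5G13790, chr5:4448862-4450958, minus strand), which encodes a MADS-domain protein abundant in embryos and known to delay flowering together with AGL18, had 1 peak, in FLC in *svp-41*. It was chr5:4450884-4451259, 375 bp wide, with its summit at position 4451089, 131 bp upstream of the gene. Its fold enrichment was 2.83 and its −log10 P was 9.50, which ranked 400th of 419 in a list whose lowest value was 9.24. The peak at *AGL15* was thus close to the lower limit of its list, and it was lost at a minimum −log10 P of 20. It was also assigned to AT5G13780 and to *PPH* (AT5G13800), the pheophytinase of chlorophyll breakdown, whose distances from the summit were 2414 and 644 bp.

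The 201 bp around the *AGL15* summit held 2 boxes with 1 mismatch and no exact CArG-box. Their centres lay 12.5 and 45.5 bp from the summit, on the side of the gene. The stretch is shown 5′ to 3′ on the minus strand, with both boxes in capitals, as the only summit of the group that lay upstream of its gene.
AGL15 around the summit, chr5:4450989-4451189: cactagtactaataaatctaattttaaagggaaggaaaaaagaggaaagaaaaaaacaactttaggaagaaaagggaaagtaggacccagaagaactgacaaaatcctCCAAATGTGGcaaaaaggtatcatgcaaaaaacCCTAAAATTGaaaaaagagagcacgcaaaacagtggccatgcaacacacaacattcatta

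SVP:GFP had no peak assigned to *AGL15*, but its nearest summits were close, 9.78 kb from the gene in WT and 9.81 kb in *flc-3*, both assigned to another gene. Of all protein-coding genes, 8.92% and 3.64% lay nearer to a summit of these lists. In FLC in WT the nearest summit was 583 kb away.

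**Figure D4:**
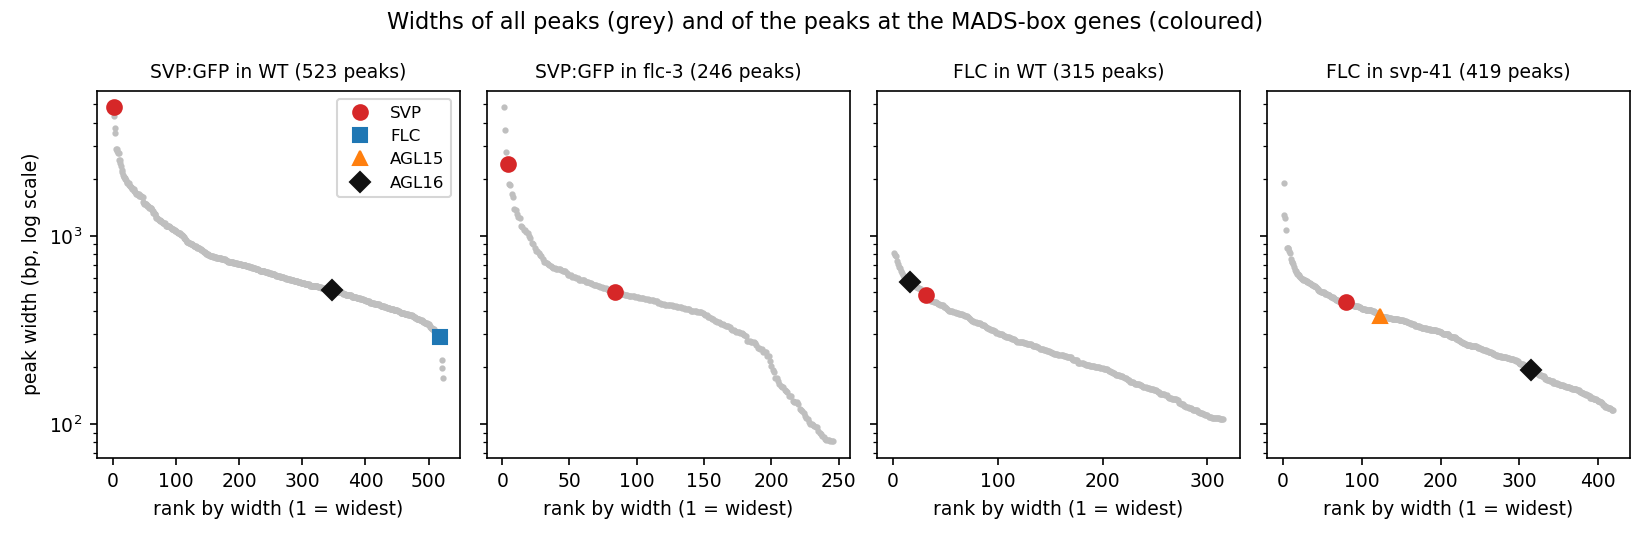
Width in bp (y axis, log scale) of every peak of the 4 lists against its rank by width (x axis, 1 is the widest), 1 list in each panel, with the peaks at *SVP*, *FLC*, *AGL15* and *AGL16* coloured. The peak at *SVP* is the widest in SVP:GFP in WT (4826 bp), that at *FLC* is among the narrowest of the same list (290 bp), and that at *AGL16* is 17th widest in FLC in WT and 315th in FLC in *svp-41*.

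Across the group, no peak held an exact CArG-box, 0 of 10. The share of all peaks with an exact box was 7.65% in SVP:GFP in WT, 8.94% in SVP:GFP in *flc-3*, 9.21% in FLC in WT and 10.3% in FLC in *svp-41*, so that most peaks of the lists lacked it too. An A/T core of 5 to 7 letters also gave 0 of 10, beside 18.9%, 16.7%, 17.1% and 17.4% of all peaks of the lists. With 1 mismatch allowed, 7 of 10 summits had a box within 100 bp, and these were all but the 2 of *SVP* in SVP:GFP in *flc-3* and that of *FLC*. The same search gave 37.7%, 32.9%, 51.4% and 49.6% of all peaks of the lists, in the same order, and 22.5% of all 201-bp windows of the genome. The 7 summits lay within 100 bp of 4 boxes in all, since those of *SVP* share 1 box and those of *AGL16* another.

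The G-box CACGTG, an element read on both strands that bHLH and bZIP factors bind, was in 0 of the 10 peaks. It was in 28.5% of all peaks of SVP:GFP in WT, 22.4% of SVP:GFP in *flc-3*, 11.4% of FLC in WT and 5.73% of FLC in *svp-41*. These are matches of letters in the reference, and their absence says only that the letters were not in these windows.

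*AGL24*, *FLM* and *MAF2* to *MAF5* had no summit within 3 kb in any list. *AGL24* (AT4G24540, chr4:12670897-12674106, minus strand) is the closest relative of *SVP* and promotes flowering rather than delaying it. Its nearest summit lay 99.5 kb away in SVP:GFP in WT, 349 kb in SVP:GFP in *flc-3*, 48.1 kb in FLC in WT and 277 kb in FLC in *svp-41*. The summit at 48.1 kb was the only one within 50 kb of any of the 6 genes. It is common to be this far from a summit, since 63.9%, 84.9%, 81% and 79.8% of all protein-coding genes lay more than 50 kb from a summit in the 4 lists.

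*FLM* (AT1G77080, chr1:28955483-28960234, plus strand), which is known for repressing flowering in cool conditions together with SVP, had its nearest summit at 63.3 kb in both SVP:GFP lists and at 161 kb in both FLC lists. *MAF2* to *MAF5* stand in tandem on chromosome 5 (chr5:25982254-26002619, plus strand). They are FLC-like genes, and *MAF2* is known for preventing flowering after brief cold. In each list the 4 *MAF* genes shared the same nearest peak, at 177 to 192 kb in SVP:GFP in WT, 805 to 822 kb in SVP:GFP in *flc-3*, 361 to 377 kb in FLC in WT and 193 to 209 kb in FLC in *svp-41*. Of all protein-coding genes, 78.8%, 91.5%, 80.6% and 61.9% lay nearer than *MAF2* to a summit of SVP:GFP in WT, SVP:GFP in *flc-3*, FLC in WT and FLC in *svp-41*. The *MAF* genes were thus farther from a summit than most genes in the first 3 of these lists, and less so in FLC in *svp-41*, where the median over all genes was 152 kb.

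**Figure D5:**
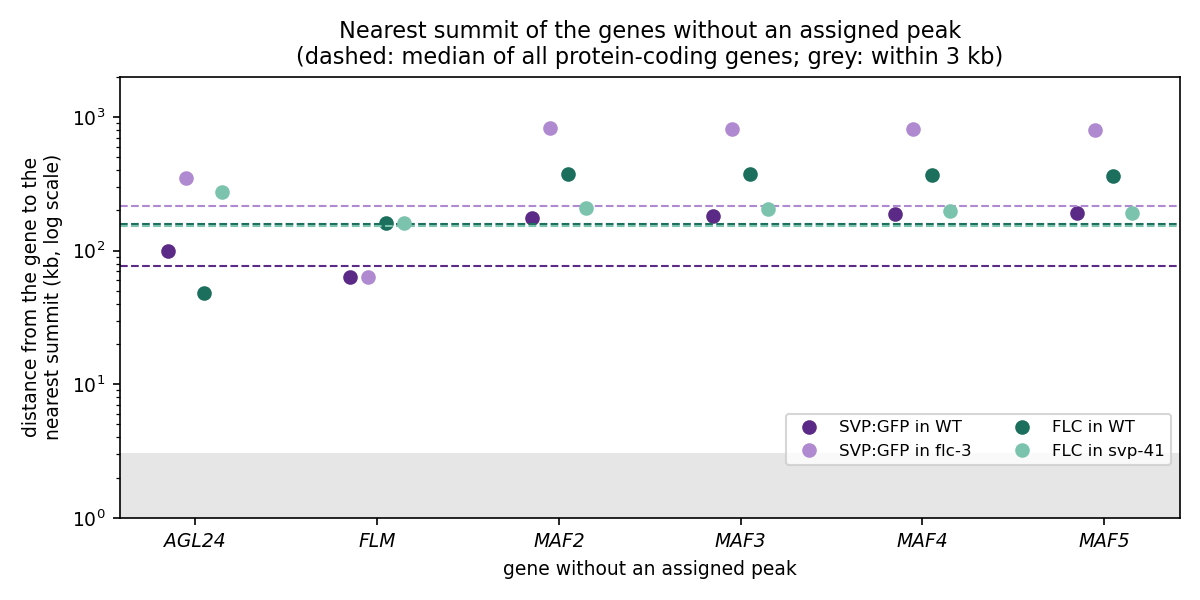
Distance in kb (y axis, log scale) from each of the 6 genes without an assigned peak (x axis) to the nearest summit of each list (points), with the median over all protein-coding genes as a dashed line for each list and distances under 3 kb shaded. No point lies in the shaded zone, and the lowest is *AGL24* in FLC in WT, at 48.1 kb.

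Exact CArG-boxes were also found near genes without a peak. Of the 10 genes, 3 had an exact box from 3 kb upstream to 1 kb downstream, *SVP* with 1, *AGL24* with 1 in an intron and *FLM* with 2 upstream. Such a box was found for 33.5% of all protein-coding genes. The *AGL24* and *FLM* boxes lay 48.1 kb or more from any summit, and they are shown with 10 bases on each side and the box in capitals, on the strand of the gene, as exact boxes with no peak.
AGL24 in an intron, chr4:12672897-12672926, minus strand: ggaagcattaCCATAATTGGgaaacgagtc
FLM 2560 bp upstream, chr1:28952913-28952942, plus strand: tgttttttttCCTTTTTTGGttttagttaa
FLM 874 bp upstream, chr1:28954599-28954628, plus strand: ttatatcgggCCTTTAATGGgcatgtgaat

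Since these genes are related, their sequences were searched for copies. From 3 kb upstream to 1 kb downstream, 9 of the 10 genes had no copy elsewhere in the genome at 95% identity over 150 bp. The exception was *SVP*, with 8 copies over 299 bases (3.62% of its stretch), and none of these was within the 200 bp around a summit. At the summit of the larger *SVP* peak in SVP:GFP in *flc-3*, the best match elsewhere had 81.0% identity over 195 bp.

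Among 29 other MIKC-type MADS-box genes, 5 had a peak in SVP:GFP in WT, 5 in SVP:GFP in *flc-3*, 5 in FLC in WT and 6 in FLC in *svp-41*. Of all protein-coding genes, 2.64%, 1.02%, 1.15% and 1.32% had one in these lists, in the same order. Of the 29, 8 (27.6%) had a peak in at least 1 list. The share of all protein-coding genes for this was not computed, and the shares of single lists are not its measure. *SEP3*, *SHP2* and *SOC1* had peaks in all 4 lists, as *SVP* did. *AP3* and *TT16* had peaks in both FLC lists, and *AGL14* and *AGL19* in both SVP:GFP lists. *AGL18*, which acts with *AGL15*, had the same presence as *AGL15*, a peak in FLC in *svp-41* only. This peak, singled out after its values were seen, had a fold enrichment of 2.54 and a −log10 P of 9.30 (414th of 419), so both genes stood near the lower limit of that list.

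For *SVP* and *AGL16*, the genes with the same presence in the lists and the nearest ranks by −log10 P were looked up. *SVP* shared its presence in 4 lists with 54 other genes. Its rank lay in the top 22.0%, 14.6%, 20% and 14.6% of the lists, and the nearest was *ATC* (AT2G27550), a relative of *FT* and *TFL1*, with 26.6%, 21.5%, 11.4% and 12.6%, a summed difference of 22.0 percentage points over 4 lists. The next was AT5G58900, with a summed difference of 23.0. *AGL16* shared its presence in 3 lists with 82 other genes, and its ranks of 5.93%, 2.22% and 53.2% were nearest to those of *JAZ6* (AT1G72450), which encodes a repressor of jasmonate responses, and AT1G72460. These 2 genes share the same peaks, with 14.0%, 2.86% and 49.9%, a summed difference of 12.0 over 3 lists. Presence like that of *FLC*, in SVP:GFP in WT only, was found for 375 other genes, and presence like that of *AGL15* for 156.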

How the data were processed

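The authors aligned the reads to TAIR10 with Bowtie2 2.0.2, used MACS to call peaks in each replicate over pooled negative control samples, and kept those that were reproducible between replicates and that NarrowPeaks also found. Which replicate gave a peak its extent and values is not given in the sources used here. They assigned a peak to a gene when its summit lay from 3 kb upstream to 1 kb downstream. The deposited fold enrichment is a ratio of sample to control, and the deposited −log10 p-value also comes from the authors' peak calling. Reads and replicate peaks were not used here.

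Peaks were taken as deposited, with 0 value columns left unused, and summits were the start plus the deposited offset. Genes, distances and sequences came from TAIR10.1 (RefSeq), in which 1901 of 1906 pairs of peak and gene fitted the authors' window. Overlaps of at least 1 bp were counted and checked with bedtools 2.31.1, and copies were searched with blastn 2.17.0. Python 3.11.15, NumPy 2.4.6, pandas 2.3.3 and matplotlib 3.10.9 were used. Overlaps, box searches and distances were tested on simulated data, and bedtools gave the same overlaps for 20 of 20 simulated pairs.

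The genes named are the 10 members, the genes assigned to the same peaks, the 29 other MIKC-type genes and, for members with peaks in at least 3 lists, the 2 genes with the same presence and the smallest summed difference in percentile rank by −log10 p-value. The members and lists were chosen with earlier results of these data known. Alternatives were stricter peak limits, other gene windows, other definitions of overlap, box and rank, and offsets counted from 1.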

Additional observations from a re-analysis of the deposited data

How the results depend on the processing

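Of 40 alternative values for 14 results, 30 stayed within 1.5 times the value reported and 10 did not. With a −log10 P of at least 20, and also with 1 minimum of 17.2 for all lists, the member peaks of SVP:GFP in *flc-3* went from 2 to 1 (the smaller *SVP* peak), members with a peak and member peaks of FLC in *svp-41* each went from 3 to 1 (*AGL15* and *AGL16* were lost), and genes without a peak but with a summit within 50 kb went from 1 to 0. Overlapping pairs of member peaks went from 10 to 6 when summits had to lie at most 100 bp apart, which removed every pair with SVP:GFP in *flc-3*. Member peaks with a CArG-box went from 0 to 7 with 1 mismatch allowed within 100 bp of the summit. Other gene windows moved no count of members with a peak, and ranking by fold enrichment or width gave 8 and 7 peaks above the median of their list, beside 7. No paired analysis was possible because the lists hold 1 set of peaks per group, with no values per replicate, and for the same reason no replicate was left out in turn. Depth and replicate error are unknown, so a missing peak was not detected at the authors' thresholds and is not shown to be absent.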
